A study of Mus musculus with 4 samples.

Results

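The genes described here are 10 transcription factor and immediate early genes, Fos, Fosb, Fosl2, Jun, Junb, Jund, Egr1, Egr2, Atf3 and Ier2. They were taken by gene symbol from a count table of 54532 genes, with no count entering the selection rule but with earlier results of these data known, and all 10 were found. The libraries were made from purified alveolar macrophages (AMs), which live in the airspaces of the lung, of female wild-type (WT) mice. The study defined AMs from lungs at this tumor stage as CD45+ CD11b- CD11c+ SiglecF+ cells, and its account of the sequencing says only that AMs were purified. According to the methods of the study, WT mice were on a BALB/c background and aged 8 to 10 weeks, and cells of 4T1, a metastatic mammary carcinoma line of mouse origin, were placed in the mammary fat pad. The Control group comprised 2 libraries from mice given no 4T1 tumor. For the Tumor group, 2 libraries came from mice bearing a primary 4T1 tumor, 2 weeks after inoculation. Nothing stated ties a library to a single mouse, a pool of mice or a separate sort, so the p-values measure only the spread between these libraries, which may be technical.

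Immediate early genes are switched on within minutes of a stimulus by transcription factors already present in the cell, without new protein synthesis. FOS proteins pair with JUN proteins to form activator protein 1 (AP-1), ATF3 joins the same network and often acts as a repressor, and EGR proteins are zinc finger factors that bind GC-rich sites. In macrophages these genes respond to growth factors, microbial products, adhesion and handling, and EGR2 is also part of the program that keeps macrophages in their tissue state. Their transcripts are short-lived, so their level follows recent signalling through MAP kinases and the serum response factor SRF.

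Transcripts of 9 of the 10 genes were higher and those of 1, Egr2, were lower in the Tumor libraries. The rises ranged from 2.65-fold for Fos and 2.41-fold for Jun to 1.05-fold for Junb. All 10 had an adjusted p under 0.05 with edgeR's quasi-likelihood test, Benjamini-Hochberg adjusted over the 14256 genes tested. The same held for 53.8% of all genes tested, with 29.0% higher and 24.8% lower, and for 84.3% of the 1316 genes counted at least as deeply as the lowest of the 10, with 30.8% higher and 53.5% lower. Of the 10, Fos and Jun were at least 2-fold higher and none was lower by that much, against 12.9% higher and 3.01% lower of all genes tested and 3.27% higher of the 1316 deeply counted genes. With so many genes called, the sizes of the changes given below say more than the calls.

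All values rest on counts per gene, and totals ran from 16167147 to 19205737 counts per library. CPM (a read count relative to library size) was scaled by the trimmed mean of M values (TMM), and FPKM is the same divided by the length of the gene in kilobases, so that levels of different genes can be compared. Together the 10 genes took 0.578% and 0.587% of all Control counts and 0.809% and 0.820% of all Tumor counts. With 2 libraries against 2, an exact permutation test cannot go below p = 0.333, so single values were given no permutation test, and the tests below come from the model over all genes, which shares information on the spread between genes.

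The Tumor libraries also held transcripts of other cells, measured with lists of marker genes. Of 14 AM markers, all 14 were lower in the Tumor libraries, with a summed level of 18056 to 18133 CPM in Control and 12007 to 12153 CPM in Tumor libraries, and all were above the floor of 3 counts in all 4 libraries. All 10 neutrophil markers were higher, from a summed 48.2 to 48.5 CPM in Control to 3859 to 3892 CPM in Tumor libraries. All 5 eosinophil markers were higher, from 0.587 to 0.824 CPM to 3326 to 3374 CPM, and so were all 6 basophil and mast cell markers, from 2.03 to 2.29 CPM to 523 to 529 CPM. Of 10 hepatocyte markers 9 were higher and Trf was lower, with a summed 143 to 144 CPM against 781 to 791 CPM, and 6 of them, Alb among them, had 0 counts in both Control libraries. Of 8 monocyte and interstitial macrophage markers 2 were higher and 4 lower, with a summed 38.9 to 39.1 CPM in Control and 34.9 to 37.0 CPM in Tumor libraries. Of 8 dendritic cell markers 5 were higher and 1 lower, at 20.6 to 22.8 CPM against 59.2 to 63.3 CPM, and of 8 lymphoid markers 5 were higher and 0 lower, at 5.81 to 6.21 CPM against 16.9 to 19.1 CPM. Of 8 epithelial and endothelial markers 3 were higher and 3 lower, at 134 to 135 CPM against 89.2 to 91.9 CPM. Leaving granulocyte and hepatocyte markers out of the library sizes kept all 10 calls. This alters the scaling only and leaves reads of other cells in the counts of the 10 genes, so it cannot measure their part. Granulocytes also transcribe immediate early genes. The AM gate of the study takes CD11b- cells, whereas neutrophils and eosinophils are CD11b+. The account of the sequencing does not state the gate used for these libraries. The part of other cells in the changes below was not tested. In bulk RNA, more cells of a type cannot be told apart from more RNA per cell.

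Structural features that the choice by symbol did not use were found in some of the genes. By GENCODE annotation 4 of the 10, Jun, Junb, Jund and Ier2, consist of a single exon, against 4.81% of 20945 protein-coding genes. The AU-rich motif TATTTAT, a type of element that marks short-lived mRNAs, was present in the 3′ untranslated region of 6 of the 10 (Fos, Fosb, Fosl2, Jun, Jund and Atf3), against 34.9% of 13216 genes whose region is of similar length. Junb and Ier2 lie 311632 bases apart on chromosome 8, and Jund is on the same chromosome. RefSeq (build GRCm38.p6) held no promoter window for Egr1 and Ier2, which were not searched. For the other 8 of the 10 genes, windows from 250 bases before to 50 bases after the start site were found. They were searched on both strands for the CArG box, which SRF binds, for the cyclic AMP response element TGACGTCA, for the AP-1 sites TGACTCA and TGAGTCA, for the EGR sites GCGGGGGCG and GCGTGGGCG, and for GCGTG, the core bound by the aryl hydrocarbon receptor (AHR), the subject of the study. Of the 8 genes searched, Egr2 alone held the CArG box, against 1.63% of 32851 windows. An EGR site was in Fosb and Fosl2, against 3.47% of windows. The AHR core was in Fos, Fosb, Junb and Atf3, against 32.4% of windows. Sites outside the windows or of other forms were not looked for, so an absence here does not speak for the whole promoter. The exact TGACGTCA was in none of the 8 genes and in 1.79% of windows, and an AP-1 site was in none of the 8 and in 5.20% of windows. Egr2 has several start sites and hence more windows than the others. Not all RefSeq start sites match the start of the gene as counted, since the Jund window lies wholly upstream of the counted gene, and the Fosl2 and Atf3 windows and all but 1 of the Egr2 windows lie inside it, so the motifs given for these genes belong to those start sites alone.

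Windows are shown for both genes that rose by more than 2-fold, for the most abundant FOS gene of the Control libraries and for the gene that fell, written 5′ to 3′ with any matched motif in capitals. They lie at chr12:85473640-85473939 (plus strand) for Fos, chr4:95052173-95052472 (minus strand) for Jun, chr7:19309996-19310295 (minus strand) for Fosb and chr10:67537619-67537918 (plus strand) for 1 of the Egr2 start sites with a CArG box, inside the counted gene. The Jun window held none of the motifs in the forms searched. A match is a description of the letters and not evidence of binding.
Fos: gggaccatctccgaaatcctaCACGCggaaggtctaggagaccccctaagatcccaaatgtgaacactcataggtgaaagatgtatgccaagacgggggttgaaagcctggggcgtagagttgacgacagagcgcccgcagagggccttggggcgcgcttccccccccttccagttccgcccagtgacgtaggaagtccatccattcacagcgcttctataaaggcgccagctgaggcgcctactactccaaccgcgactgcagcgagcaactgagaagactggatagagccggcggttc
Jun: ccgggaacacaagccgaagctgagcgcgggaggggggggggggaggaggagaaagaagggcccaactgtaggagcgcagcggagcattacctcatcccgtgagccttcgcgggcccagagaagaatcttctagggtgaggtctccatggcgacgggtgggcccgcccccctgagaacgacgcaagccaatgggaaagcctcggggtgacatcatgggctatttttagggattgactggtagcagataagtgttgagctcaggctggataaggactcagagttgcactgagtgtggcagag
Fosb: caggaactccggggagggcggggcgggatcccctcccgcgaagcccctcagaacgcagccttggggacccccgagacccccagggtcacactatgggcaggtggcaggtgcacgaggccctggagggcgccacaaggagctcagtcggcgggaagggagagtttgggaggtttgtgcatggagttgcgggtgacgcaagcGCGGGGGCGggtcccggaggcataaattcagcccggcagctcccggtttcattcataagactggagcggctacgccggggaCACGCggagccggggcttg
Egr2: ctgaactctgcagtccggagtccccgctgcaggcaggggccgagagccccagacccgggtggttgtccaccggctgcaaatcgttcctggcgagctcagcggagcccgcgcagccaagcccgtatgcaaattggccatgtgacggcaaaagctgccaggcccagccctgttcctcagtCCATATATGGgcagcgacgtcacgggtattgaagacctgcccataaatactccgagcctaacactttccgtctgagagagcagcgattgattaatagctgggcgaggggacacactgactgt

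The FOS subunits were compared first, and gene positions are given in GRCm38. Fos (chr12:85473890-85477273), the founding member whose protein binds DNA only with a JUN partner, was at 431 and 435 CPM in the Control and 1136 and 1159 CPM in the Tumor libraries. Both Tumor libraries were far above both Control libraries. It rose by 1.41 ± 0.022 on the log2 scale (SE, adjusted p = 1.36e-27, edgeR). Fosb (chr7:19302696-19310051), a close relative of Fos whose shorter splice form lacks part of the activation domain, was at 1394 and 1423 CPM in the Control and 1887 and 1939 CPM in the Tumor libraries. It had the highest counts of the 10 genes in each of the 4 libraries and rose by 0.44 ± 0.019 on the log2 scale (SE, adjusted p = 1.39e-17, edgeR). Fosl2 (chr5:32135801-32157842), which encodes FRA-2, a FOS protein without a strong activation domain, was at 812 and 816 CPM in the Control and 1014 and 1009 CPM in the Tumor libraries, a log2 fold change of 0.31 ± 0.021 (SE). The gene counts do not tell splice forms of Fosb apart.

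The JUN subunits, which can pair with each other as well as with FOS, moved by unequal amounts. Jun (chr4:95049034-95052222), a strong activator, was at 166 and 160.4 CPM in the Control and 386 and 402 CPM in the Tumor libraries. It rose by 1.27 ± 0.032 on the log2 scale (SE, adjusted p = 6.75e-23, edgeR). Jund (chr8:70698949-70700616), the subunit present in most resting cells, was at 109 and 139.6 CPM in the Control and 198 and 202 CPM in the Tumor libraries. The Control libraries of Jund lay further apart than those of any other of the 10 genes relative to their mean, yet below both Tumor libraries, and the log2 fold change was 0.69 ± 0.059 (SE, adjusted p = 6.57e-11, edgeR). Junb (chr8:84974484-84978718), a weaker activator that can oppose JUN, was at 1066 and 1113 CPM in the Control and 1149 and 1133 CPM in the Tumor libraries. The groups did not overlap, but the difference of 0.067 ± 0.021 (log2, SE, adjusted p = 0.00955, edgeR) was of the size of the gap within the Control pair. It was 0.026 without Control replicate 1 and 0.050 without Tumor replicate 1, with edgeR adjusted p of 0.413 and 0.0757.

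**Figure D1:**
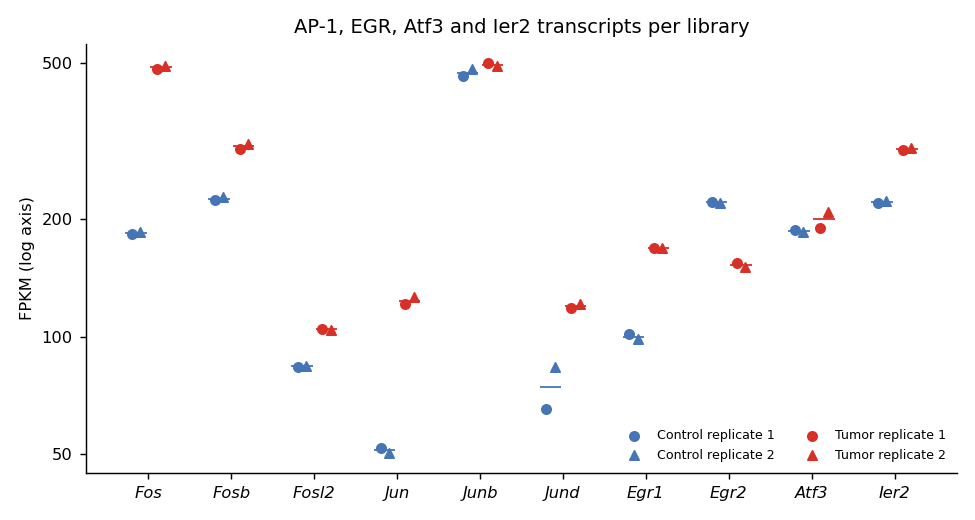
FPKM of each gene (log axis) in the 2 Control libraries (blue) and the 2 Tumor libraries (red), with circles for replicate 1, triangles for replicate 2 and a short line at the group mean. Fos and Jun show the widest gaps between the groups, Egr2 lies lower in the Tumor libraries, and Junb and Atf3 nearly coincide.

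The EGR genes moved in opposite directions. Egr1, the growth factor and stress responsive member on chromosome 18, was at 455 and 443 CPM in the Control and 755 and 756 CPM in the Tumor libraries. This was a rise of 0.75 ± 0.024 on the log2 scale (SE), with an edgeR adjusted p of 1.41e-20. Egr2 (chr10:67535475-67542188) was at 753 and 747 CPM in the Control and 526 and 513 CPM in the Tumor libraries. Both Tumor libraries lay below both Control libraries, and the log2 fold change was -0.53 ± 0.023 (SE, adjusted p = 2.69e-17, edgeR). Relative to the summed AM markers no fall of Egr2 was seen. Scaling on the 14 AM marker genes turned its log2 fold change to 0.053 (adjusted p = 0.0669, edgeR). Abundant markers weigh most in the sum, and single markers ran from -0.16 for Siglecf to -2.13 for Fabp4, with a median of -0.52. Egr2 thus fell by more than some AM markers, such as Siglecf and Pparg, and by less than others, such as Lpl and Fabp4. AM marker scaling shifted the median log2 fold change over the 14256 genes to 0.600 from 0.018, so Egr2 was below the median either way. The 9 genes that were higher were called higher under that scaling too, from 0.65 for Junb to 1.99 for Fos, as were 10678 of the 14256 genes. Because the scaling moves genes up together, it could not undo a rise, and these calls add no support.

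Atf3 (chr1:191170296-191218039), a stress-induced factor that restrains inflammatory genes in macrophages, was at 403 and 399.8 CPM in the Control and 409 and 449.7 CPM in the Tumor libraries. The gap within the Tumor pair was wider than the distance from Tumor replicate 1 to the Control libraries. The log2 fold change of 0.098 ± 0.032 (SE, adjusted p = 0.0110, edgeR) rested on single libraries. It was 0.024 without Tumor replicate 2 and 0.072 without Control replicate 2, with edgeR adjusted p of 0.586 and 0.0651, and 0.16 without Tumor replicate 1. With the Wald test of DESeq2 it was 0.094 with an adjusted p of 0.0610. Ier2 (chr8:84661331-84662852), a short nuclear protein gene induced together with Fos, was at 335 and 338 CPM in the Control and 457 and 461 CPM in the Tumor libraries. It rose by 0.45 ± 0.026 on the log2 scale (SE, adjusted p = 1.98e-14, edgeR), close to Fosb in size.

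**Figure D2:**
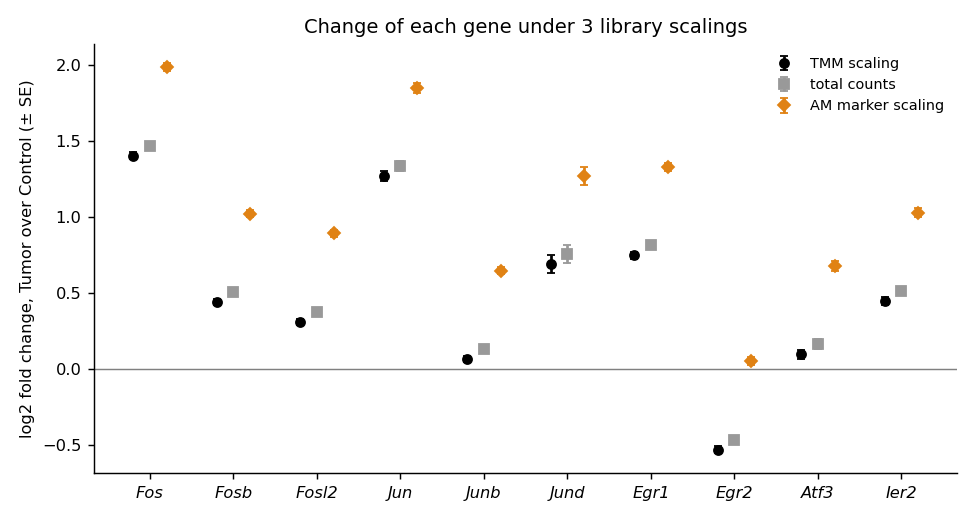
Log2 fold change of Tumor over Control for each gene, with bars for the standard error, under TMM scaling (black circles), total counts (grey squares) and scaling on the 14 AM marker genes (orange diamonds). Fos and Jun stand highest under all 3 scalings, and Egr2 moves from -0.53 to 0.053 under AM marker scaling.

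In none of the 10 genes did the Control and Tumor CPM overlap. This alone is weak, since 75.1% of all genes tested and 92.3% of the 1316 deeply counted genes did not overlap either. Reads of overlapping genes could be counted with the genes described, as the strand setting of the counting is not given in the sources used here. Junb shares 351 bases with Prdx2 on the opposite strand, a gene of 703 to 904 counts per library. Jun shares 689 bases with its antisense transcript Junos, which had 7 counts or fewer in each library. Gm11175 at Jund and Gm24748 at Atf3 had 0 counts in all 4 libraries.

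Levels per length showed that these transcripts were abundant already without a tumor. In the Control group the 10 genes lay between the 93.07 and the 99.54 percentile of all tested genes by mean FPKM, and in the Tumor group between 96.92 and 99.59. Junb was highest of the 10 in Control, at 473 ± 14.4 FPKM (SD, n = 2). Fosb at 226 ± 3.25, Ier2 at 221 ± 1.37 and Egr2 at 221 ± 1.25 FPKM followed (SD, n = 2 each), and the libraries of Ier2 and Egr2 overlapped, so that their order is not resolved. Atf3 at 186 ± 1.08 and Fos at 184 ± 1.19 FPKM came next, then Egr1 at 100.1 ± 1.94, Fosl2 at 84.1 ± 0.294, Jund at 74.6 ± 12.9 and Jun at 51.2 ± 1.24 (SD, n = 2 each).

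In the Tumor group Fos stood beside Junb at the top, at 488 ± 6.70 against 496 ± 4.97 FPKM (SD, n = 2 each), and the libraries of the pair overlapped. Egr1 at 169 ± 0.197 had passed Egr2 at 153 ± 2.69 FPKM, and Jun at 124 ± 3.71 had reached Jund at 119.8 ± 1.66 and passed Fosl2 at 104 ± 0.379 FPKM (SD, n = 2 each). Fosb at 306 ± 5.91 and Ier2 at 302 ± 1.74 FPKM were not resolved from each other (SD, n = 2 each). The order depends on the length used. The table counts 6243 bases for Fosb and 9680 for Fosl2, whereas their longest protein-coding transcripts hold 3782 and 6537. With transcript lengths Fosb rose to 372 in Control and 506 FPKM in Tumor libraries, and Fos, at 205 and 544 FPKM, was still below it in the former and above it in the latter. In the Tumor group, however, Egr2 at 175 FPKM was then above Egr1 at 169, and Fosl2 at 155 above Jun at 124. Junb at 631 was then above Fos and Fosb above Ier2 at 302 FPKM, with no overlap of their libraries, so the order or tie of each of these pairs depends on the length.

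The make-up of each family, as a share of the summed FPKM of its genes within a library, needs no scaling between libraries, although its level depends on the gene lengths. Fos supplied 37.0% and 36.8% of FOS family transcripts in the Control and 53.3% and 53.3% in the Tumor libraries. Fosb supplied 45.1% and 45.4% against 33.3% and 33.6%, Fosl2 17.0% and 16.8% against 11.6% and 11.3%, and Fosl1 between 0.859% and 1.84% in all 4. In the JUN family Junb supplied most in every library, 79.8% and 78.3% in the Control and 67.6% and 66.6% in the Tumor libraries. Jun went from 8.96% and 8.15% to 16.4% and 17.1%. In the EGR family Egr2 supplied 66.6% and 67.2% in the Control and 45.8% and 45.3% in the Tumor libraries, and Egr1 30.5% and 30.2% against 49.9% and 50.6%. By gene length the ratio of Egr1 to Egr2 was 0.458 and 0.449 in the Control and 1.09 and 1.12 in the Tumor libraries. No group overlapped in any of these shares. With 2 libraries per group they are descriptions without a test.

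**Figure D3:**
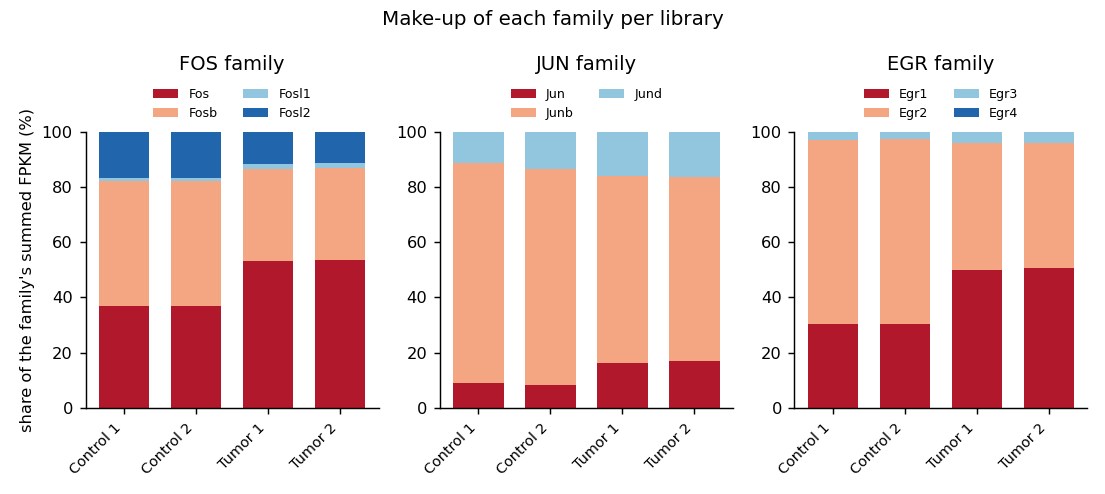
Share of each gene in the summed FPKM of its family (%), in stacked bars for the 2 Control and the 2 Tumor libraries, for FOS, JUN and EGR genes. The Tumor bars hold more Fos, Jun and Egr1 and less Fosb, Junb and Egr2 than the Control bars.

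Summed over each family, FOS transcripts went from 498 ± 5.28 to 915 ± 11.8 FPKM and JUN transcripts from 599 ± 26.1 to 739 ± 0.401 FPKM (SD, n = 2 each), ratios of 1.84 and 1.23. EGR transcripts went from 330 ± 3.86 to 335 ± 3.04 FPKM (SD, n = 2 each), a ratio of 1.02.

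Genes of the same pathways were then read from 8 lists. The lists held 88 genes of the table besides the 10, of which 84 were tested. Of these 84, 61 were called, 35 higher and 26 lower, or 72.6%. The share called was 53.8% of all genes tested, with 29.0% higher and 24.8% lower, and 84.3% of the 1316 deeply counted genes, with 30.8% higher and 53.5% lower. The counts per list below are to be read beside these shares. Scaling on the AM markers gave 72 calls, 64 higher and 8 lower, so small falls below depend on the scaling. The median log2 fold change over the 84 genes was 0.058, beside 0.45 over the 10 genes and 0.018 over all genes tested.

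Among other AP-1 and bZIP genes, 5 of 14 were higher and 2 were lower. Fosl1, which encodes FRA-1, rose by 1.83 ± 0.12 on the log2 scale, from 7.26 and 8.55 to 28.5 and 27.5 CPM. Jdp2, a repressor that competes for JUN, rose by 1.02 ± 0.073 and Batf, a partner of JUN in lymphoid and myeloid cells, by 0.32 ± 0.096 (SE). Batf3, needed for cross-presenting dendritic cells, changed by -0.72 ± 0.27 from 55 and 50 counts to 33 and 35, and Maff, a small MAF protein, by -0.63 ± 0.031 (SE). The Batf and Batf3 calls were lost when single libraries were left out (Control replicate 2 or Tumor replicate 1 for Batf, Control replicate 1 or 2 or Tumor replicate 2 for Batf3) and with the Wald test of DESeq2, and AM marker scaling left Maff at -0.046 and Batf3 at -0.14 without a call.

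Of 3 tested EGR relatives and partners, 1 was higher and 2 were lower. Nab2, a co-repressor that EGR proteins induce and are then held back by, fell from 38.8 and 37.8 to 13.5 and 14.7 CPM, a log2 fold change of -1.44 ± 0.092 (SE, adjusted p = 1.07e-13, edgeR). Nab1, its relative, changed by -0.44 ± 0.048, which AM marker scaling turned to 0.14. Egr3 rose by 0.61 ± 0.068 (SE). Egr4, with 2 counts in each Control library and 5 and 8 counts in Tumor, was too low to test.

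Of 17 other immediate early genes tested, 10 were higher and 5 were lower, and Ier5l, with 3 counts in each Control library and 1 and 7 counts in Tumor, was not tested. Klf2, a factor that quiets inflammatory transcription, rose by 1.77 ± 0.046, Ier3 by 1.59 ± 0.062 and Myc by 1.02 ± 0.077 on the log2 scale (SE). The nuclear receptor gene Nr4a3 fell from 395 and 386 to 159.5 and 160.6 CPM, by 1.29 on the log2 scale, and Gadd45b, a stress-response gene, by 1.03. Maff, given above, is also on this list. Nr4a1 and Nr4a2 changed by -0.45 and -0.50, and AM marker scaling turned these to 0.14 and 0.086. Both, and Zfp36, were picked with their values already known. Zfp36, which encodes tristetraprolin, a protein that binds AU-rich elements such as those counted above, rose from 969 and 977 to 1407 and 1434 CPM, by 0.55 ± 0.020 on the log2 scale (SE). Under TMM scaling immediate early genes thus did not move as a block, with Egr2, Maff, Gadd45b and Nr4a genes lower while Fos, Jun and Egr1 were higher.

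**Figure D4:**
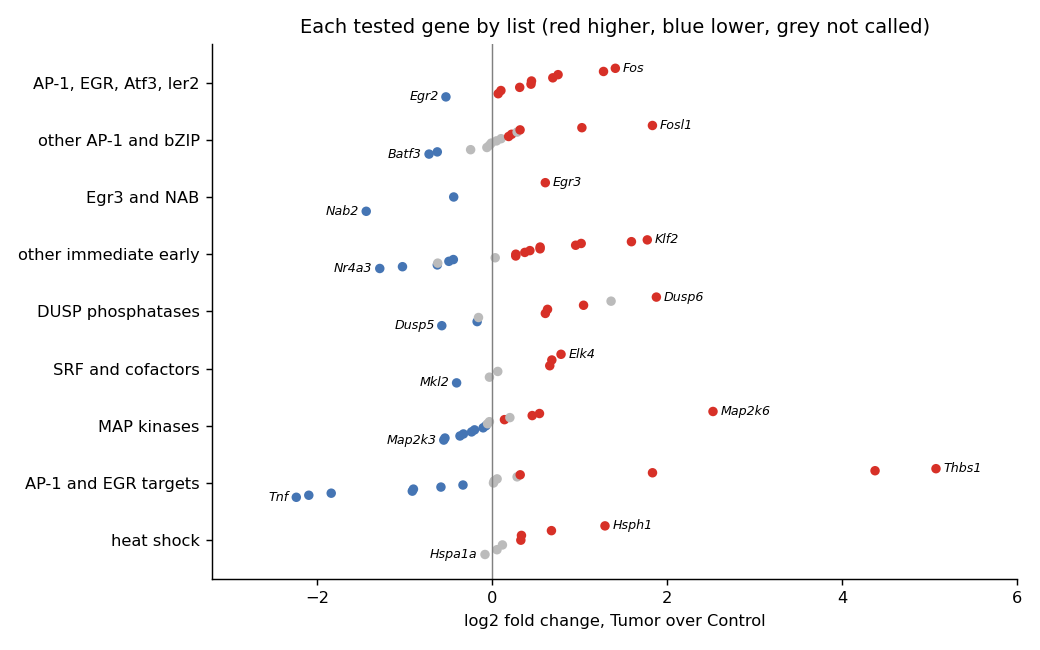
Log2 fold change of Tumor over Control for each tested gene, in rows by list, with red for genes called higher, blue for lower and grey for not called, and with the lowest and highest gene of each list named. The 10 genes in the top row run from -0.53 to 1.41, and the AP-1 and EGR target row has the widest spread, from -2.24 to 5.07.

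Upstream genes were read next. The dual-specificity phosphatases, which switch off MAP kinases and are themselves induced by them, comprised 8 tested genes, 4 of them higher and 2 lower. Dusp1 rose from 725 and 737 to 1511 and 1501 CPM, by 1.04 ± 0.020, and Dusp6 by 1.88 ± 0.080 and Dusp2 by 0.63 ± 0.12 on the log2 scale (SE). Dusp5 changed by -0.58 ± 0.026 and Dusp16 by -0.17 ± 0.047 (SE), and AM marker scaling turned these to 0.0054 and 0.41. The Dusp16 call was lost without Control replicate 1 and with total counts as library sizes. Of 6 tested genes for SRF and its cofactors 3 were higher and 1 was lower. Elk4, a ternary complex factor, rose by 0.79 ± 0.061, Mkl1, an actin-sensing cofactor, by 0.68 ± 0.062 and Srf by 0.66 ± 0.062, whereas Mkl2 changed by -0.41 ± 0.055, or by 0.17 under AM marker scaling (SE).

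Of 15 tested MAP kinase pathway genes 4 were higher and 8 were lower, and Mapk11, with 2 and 1 counts in Control and 8 and 17 counts in Tumor, was not tested. Mapk14, which encodes p38 alpha, rose by 0.54 ± 0.032, Rps6ka1, a kinase downstream of ERK, by 0.46 ± 0.036 and Map2k4, which activates JNK, by 0.14 ± 0.054 on the log2 scale (SE). Map2k3, an activator of p38, changed by -0.56 ± 0.030, Mapkapk2, its effector, by -0.54 ± 0.027 and Mapk8, which encodes JNK1, by -0.37 ± 0.083 (SE). AM marker scaling turned these 3 to 0.028, 0.042 and 0.21 and called none of the 15 lower. The Map2k4 call was lost without Control replicate 1, Control replicate 2 or Tumor replicate 2, without a filter on low counts and with the Wald test of DESeq2. These are transcript levels and say nothing of kinase activity.

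Genes known to carry AP-1 or EGR sites showed no common direction, with 4 of 15 higher and 7 lower, or 7 higher and 5 lower under AM marker scaling. Thbs1, which encodes thrombospondin 1, rose by 5.07 ± 0.060 on the log2 scale, from 8.96 and 10.3 to 333 and 311 CPM, Mmp9, a matrix protease also stored in neutrophils, by 4.37 ± 0.078 and Ptgs2, which encodes cyclooxygenase 2, by 1.83 ± 0.056 (SE). The Mmp9 and Ptgs2 rises stood in libraries whose neutrophil markers rose as given above, and the part of neutrophils was not tested. Tnf fell from 2018 and 2050 to 432 and 429 CPM, a log2 fold change of -2.24 ± 0.021 (SE, adjusted p = 2.40e-33, edgeR). Hmox1, which encodes haem oxygenase 1, changed by -2.10 ± 0.032 and Mmp13 by -1.84 ± 0.30 from 61 and 63 counts to 17 and 20 (SE). Each of these 3 falls kept its direction under AM marker scaling, at -1.66, -1.51 and -1.26.

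Immediate early and heat shock genes also rise when tissue is dissociated. Of 7 tested heat shock genes 4 were higher and 0 were lower, or 57.1% called, near the 53.8% of all genes tested. Hsph1 rose by 1.29 ± 0.049, Dnajb1 by 0.68 ± 0.056 and Hspa8 by 0.33 ± 0.018 on the log2 scale (SE). The near-identical stress-inducible genes Hspa1a and Hspa1b, between which reads can be split in counting, were picked with their values already known. Hspa1b rose by 0.33 ± 0.077 (SE, adjusted p = 0.000700, edgeR), and Hspa1a was at -0.084 ± 0.089 (SE, adjusted p = 0.454, edgeR), or at 0.50 under AM marker scaling. Mitochondrial genes held 1.62% to 1.63% of counts in Control and 1.80% to 1.81% in Tumor libraries. The part of cell handling in the changes was not tested.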

How the data were processed

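Counts per gene were deposited by the authors without normalization, 1 column per library. Per the methods of the study and the labels, AM RNA was extracted with TRIzol, made into libraries with a NEBNext Ultra RNA kit, aligned with HISAT2 2.0.5 and counted with featureCounts. The genome build and strand setting are not given in the sources used here. Of 54532 gene identifiers 54495 were in GENCODE M21, 98.3% with identical GRCm38 coordinates, including all 10 genes described.

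Tests were run with edgeR 4.0.16 under R 4.3.3 (filterByExpr at 10 counts, TMM, glmQLFit and glmQLFTest, group as the single term, 2 residual degrees of freedom), Benjamini-Hochberg adjustment over 14256 tested genes and a threshold of 0.05. The SE was taken as the size of the log2 fold change over the square root of F. FPKM was computed here from the counts and the gene length of the table. The procedure was tested on simulated data. DESeq2 1.42.0 and limma-voom (limma 3.58.1) served as alternatives, beside other scalings, filters, thresholds and left-out libraries.

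The genes and lists were chosen with earlier results of these data known. From each list, up to 3 called rises and 3 called falls were named, largest first, if the group with more counts averaged 50 or above. List genes with 3 counts or fewer in both libraries of a group are given by their counts, and other list genes named are marked as chosen after their values were seen. The floor of 3 counts covers counting error only.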

Additional observations from a re-analysis of the deposited data

How the results depend on the processing

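Requiring a change of at least 2-fold reduced the calls from 7671 to 2268 over all genes, from 10 to 2 among the genes described and from 61 to 18 in the pathway lists. Under AM marker scaling 95.1% of called genes were higher over all genes and 88.9% in the pathway lists, against 53.9% and 57.4% with TMM, and Egr2 turned to 0.053. The other scalings, filters, tests and left-out libraries kept the direction of all 10 genes. Junb lost its call without a filter on low counts, at 0.050 with an edgeR adjusted p of 0.0810, and without Control replicate 1 or Tumor replicate 1. Atf3 lost it with DESeq2, at an adjusted p under 0.01 and without Control replicate 2 or Tumor replicate 2. Each fit without a library left 1 library in a group, which was assumed to vary like the other group, and called 6515 to 7470 genes and 9 of the 10. The replicate numbers were not known to mark a shared mouse or day, and deviations of libraries with the same number correlated at -0.00278 across genes. With the replicate number as a block 7446 genes, 10 of the 10 and 61 list genes were called. Ranked by CPM without length, 8 of the 10 genes moved in the Control order (Fosl2 from 8 to 3, Ier2 from 3 to 8, Junb from 1 to 2), and Fos and Egr2 did not. With transcript lengths in place of gene lengths, an alternative chosen after seeing the data, Junb, Fosb, Jund and Jun kept their rank in Control and the other 6 moved by 1.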
